A study of Mus musculus with 16 samples.

Results

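The 10 genes described here encode the machinery of antigen presentation by MHC class I in the mouse: the classical heavy chains H2-K1 and H2-D1, their partner B2m, the loading genes Tap1, Tap2 and Tapbp, the induced proteasome subunits Psmb8, Psmb9 and Psmb10, and the transcriptional activator Nlrc5. They were found by gene symbol in a table of read counts with 55421 gene IDs, and each symbol matched 1 row. All 10 passed the minimum of 10 counts in total that 23018 genes passed. The list was chosen by the read counts themselves, for lower values in HIRA KO than in control livers before regeneration in these same libraries. That comparison is therefore given as a description, and no p-value of it is read.

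The samples were 16 poly-A RNA-seq libraries of mouse liver in 4 groups of 4, with both genotypes (control and HIRA KO) sampled at both times (before regeneration and after it). The HIRA complex deposits the histone variant H3.3 outside of DNA replication. All mice were C57BL/6 males that received an AAV8 virus with the hepatocyte-specific Tbg promoter at 6 months of age, so the controls carried virus too and other liver cells kept HIRA. In 2 libraries of each HIRA KO group the virus brought Cre into HIRA fl/fl mice, and the matching 2 control libraries came from wildtype mice given the same Cre virus. In the other 2, wildtype mice received saCAS9 with a guide RNA against HIRA, and their controls a guide RNA against Rosa26. The tissue removed by partial hepatectomy 4 weeks after injection was the sample before regeneration, and the liver left behind, taken 5 days later, was the sample after it. The lobes sampled, the way of collection and the time changed together and cannot be told apart. Total counts per library ran from 15103059 to 21738619.

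Class I molecules show fragments of a cell's own proteins at its surface, where CD8 T cells read them. The proteasome cuts the proteins, the TAP1/TAP2 pump carries the peptides into the endoplasmic reticulum, tapasin (Tapbp) holds empty class I molecules at the pump, and a heavy chain closes around the peptide together with beta-2-microglobulin. Interferons raise the whole pathway and swap the 3 catalytic proteasome subunits for the induced ones. NLRC5 does not bind DNA alone and works through factors seated on a module of the promoter named SXY. In liver, hepatocytes, endothelial cells and Kupffer cells all carry class I molecules. In whole tissue, fewer cells of a type and less RNA per cell cannot be told apart.

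Hira transcripts, which check the labels, stood at 5.77 ± 0.448 CPM in control before regeneration and at 3.54 ± 0.571 CPM in HIRA KO (CPM is counts scaled to library size with TMM factors, given as mean ± SD, n = 4). After it they stood at 5.67 ± 0.554 and 3.51 ± 0.707 CPM. The groups did not overlap at either time. The hepatocyte markers, led by Alb and Apoe, summed to between 119526 and 180658 CPM in every library. On the second principal component of the 13176 genes with a mean of at least 1 CPM, 4 HIRA KO libraries stood apart. They were those numbered 1 and 2 before regeneration and those numbered 1 and 2 after it. They lay between -47.4 and -36.2, while the other 12 libraries lay between -1.14 and 31.2. The table columns carry only the genotype, the time and a running number, so whether these 4 libraries share a deletion approach or a mouse was not tested. Fold changes of the members are given with and without them. The fits without them kept all control libraries, so HIRA KO libraries of 1 approach may there be set against controls of both approaches.

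Of the 10 genes, 7 lie on chromosome 17. Tapbp (chr17:33915899-33929292) and H2-K1 (chr17:33996017-34000347) come first. Psmb9 (chr17:34181987-34187764), Tap1 (chr17:34187553-34197225), Psmb8 (chr17:34197721-34201454) and Tap2 (chr17:34203527-34216321) sit side by side within 34335 bases, and H2-D1 (chr17:35262730-35267499) lies 1262382 bases from H2-K1. B2m is on chromosome 2 (chr2:122147686-122153083), and Nlrc5 (chr8:94434356-94527272) and Psmb10 (chr8:105935735-105938444) are on chromosome 8. Coordinates are from GENCODE M21 on GRCm38 (mm10), the build named for the files. Tap1 and Psmb9 run away from each other and overlap by 212 bases.

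The 250 bases before the transcription start of H2-K1, H2-D1 and B2m are shown because they hold letters in the form of the elements through which NLRC5 and interferon are known to act on class I genes. They are RefSeq promoter sequences on GRCm38.p6, so the starts are those of RefSeq. The H2-D1 window lies inside the gene as GENCODE M21 places it, from base 35262730, so both annotations differ in its start. The B2m window ends on the first GENCODE base of the gene, 122147686. Every sequence is read 5′ to 3′ on the strand of its gene. The first capitals in each mark GAANNGAAA in H2-K1 and H2-D1, found as its reverse complement, and GAAA, any 2 bases, GAAA in B2m, both in the form of an interferon-stimulated response element. The other capitals mark TGACG and ATTGG, the cores of the X2 and Y boxes of SXY, placed 20 bases apart.
H2-K1, chr17:34000348-34000597, minus strand: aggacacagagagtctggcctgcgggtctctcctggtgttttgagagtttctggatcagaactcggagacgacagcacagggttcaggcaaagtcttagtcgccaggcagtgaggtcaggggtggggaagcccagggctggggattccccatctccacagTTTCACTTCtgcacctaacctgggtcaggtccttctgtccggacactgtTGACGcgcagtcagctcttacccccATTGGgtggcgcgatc
H2-D1, chr17:35262844-35263093, plus strand: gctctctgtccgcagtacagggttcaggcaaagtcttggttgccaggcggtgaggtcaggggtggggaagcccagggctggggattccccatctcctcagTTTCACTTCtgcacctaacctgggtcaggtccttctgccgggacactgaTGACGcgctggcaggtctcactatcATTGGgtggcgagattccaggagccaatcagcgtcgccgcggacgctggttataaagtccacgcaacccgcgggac
B2m, chr2:122147437-122147686, plus strand: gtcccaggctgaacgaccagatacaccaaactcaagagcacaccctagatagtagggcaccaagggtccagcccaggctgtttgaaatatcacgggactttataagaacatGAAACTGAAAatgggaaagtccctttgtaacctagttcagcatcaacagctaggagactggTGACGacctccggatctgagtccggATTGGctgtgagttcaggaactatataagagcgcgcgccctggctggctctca

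The spacing of TGACG, then 20 bases, then ATTGG was chosen after these sequences had been seen. Searched on both strands of the 300-base windows that hold 250 bases before and 50 after each start, it was in 0.0944% of 32851 promoters, which belonged to 27 genes. Of the 8 members with a promoter in the table, it was in these 3, and H2-K1 had a second promoter entry. GAANNGAAA was in 7.52% of all promoters, and GAAA, any 2 bases, GAAA in 3.44%. TGACG alone was in 20.8% and ATTGG alone in 37.4%, and both were also in the windows of Tap1 and Psmb9, which share 275 bases. Psmb8 held TTCNNNGAA, the form of an interferon gamma activated site, as did 8.3% of promoters. A match of letters is a description and not a measured binding site. Outside the members, 20 genes with the spaced pair were tested. Of these, 13 had a log2 fold change below 0 in HIRA KO before regeneration and 8 after it, with medians of -0.07 and 0.09, and edgeR called 0 of the 20 at either time. One of them was the class I heavy chain H2-M3, with a log2 fold change of -0.13 ± 0.209 before regeneration and 0.11 ± 0.201 after it.

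Levels between genes were compared on FPKM, which is per transcript length. B2m had the highest mean over the 16 libraries with 2160 FPKM (range 1339 to 2878), ahead of H2-K1 with 944 FPKM (676 to 1228) and H2-D1 with 316 FPKM (191 to 503). This order held in 16 of 16 libraries. Tapbp (47.5 FPKM), Psmb8 (41.1 FPKM) and Psmb10 (21.7 FPKM) followed. The next neighbours were not separated: Tap1 had 13.7 FPKM and Psmb9 13.4 FPKM, and Psmb9 lay above Tap1 in 6 of 16 libraries. Tap2 had 9.09 FPKM, and Nlrc5 was lowest with 6.99 FPKM, below all other members in 14 of 16 libraries. All other values below are CPM.

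The first comparison asked how hepatocyte loss of HIRA changed these genes before regeneration, when hepatocytes hardly divide. All 10 members had a lower mean in HIRA KO, by log2 fold changes from -1.004 (Psmb9) to -0.26 (Psmb10), with a median of -0.54 beside 0.01 over all genes tested. A mean below control was seen in 48.8% of all genes. This contrast chose the genes, so nothing is read from these counts. For 9 of 10 members no HIRA KO library reached the lowest control, as for 4.53% of all genes. edgeR called 0 of the 10 at an adjusted p under 0.05, as it called 0.0391% of all genes (9 genes).

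**Figure D1:**
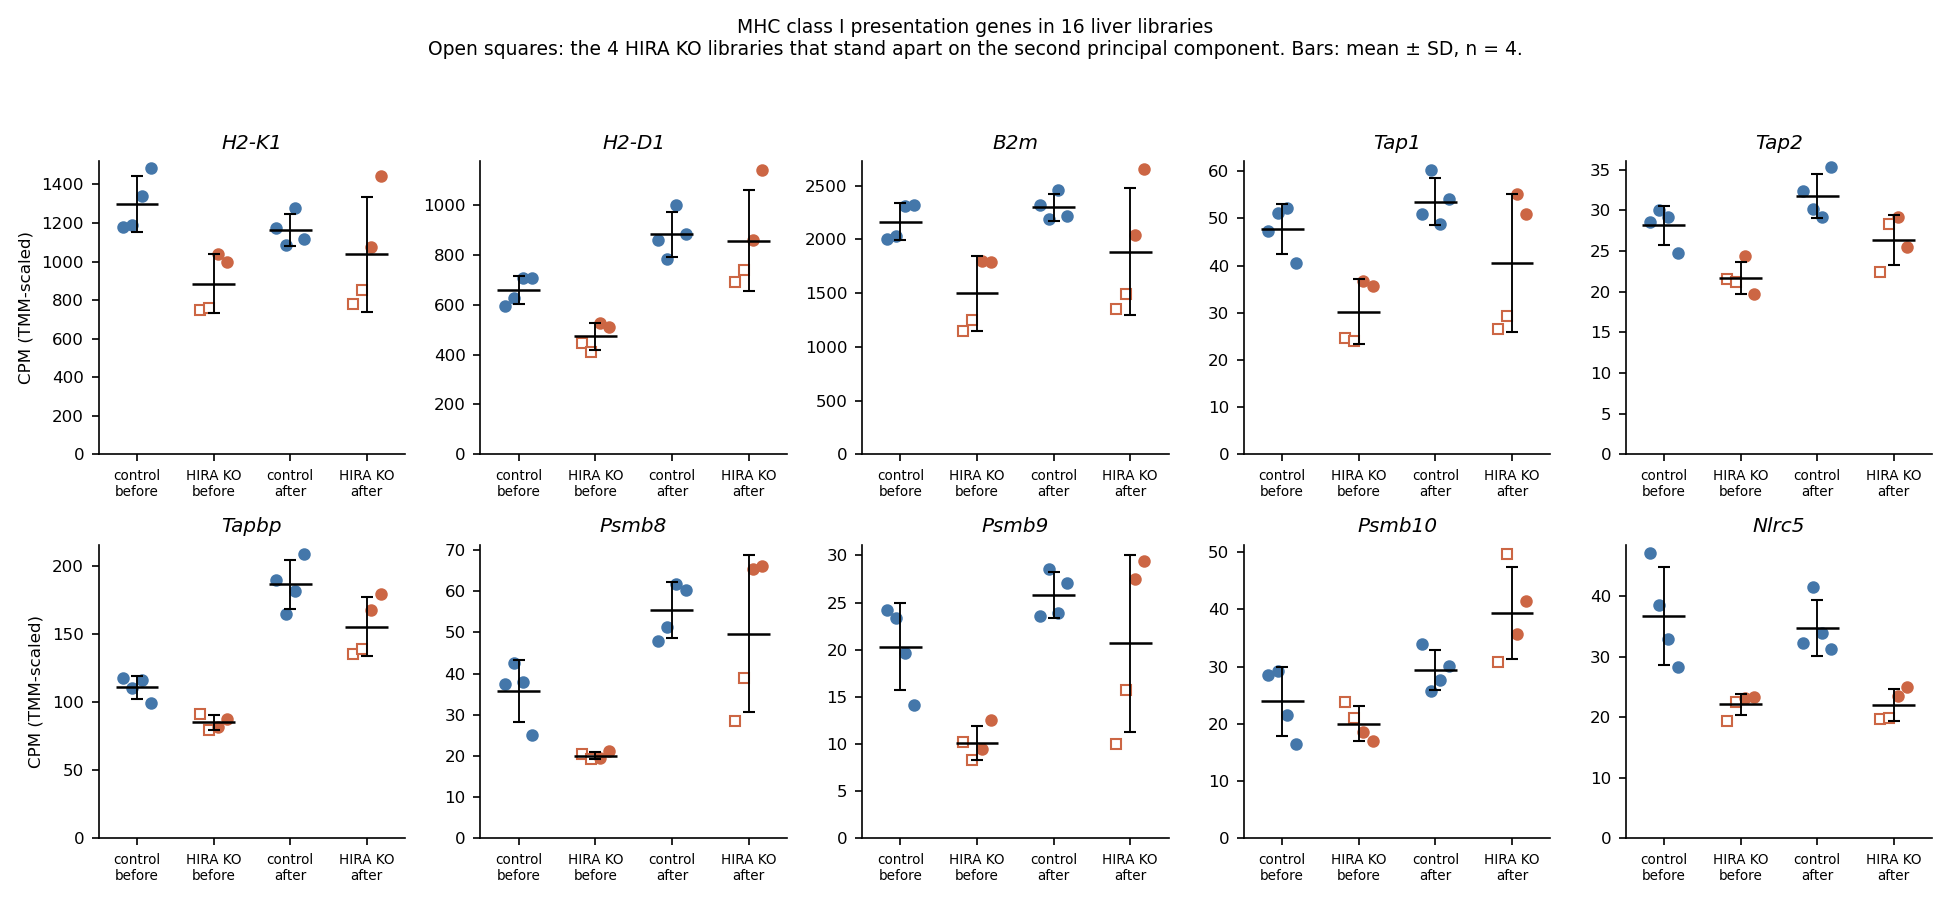
TMM-scaled CPM (linear axis from 0) of the 10 genes in each of the 16 libraries, by group, with open squares for the 4 HIRA KO libraries that stand apart and bars for mean ± SD, n = 4. Before regeneration the HIRA KO libraries lie below the control libraries for every gene but Psmb10, and after it the open squares lie below the controls for every gene but Psmb10.

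The heavy chains and their partner were the most abundant members. B2m, the invariant light chain, had 2001, 2032, 2306 and 2321 CPM in the control libraries before regeneration and 1147, 1253, 1801 and 1787 CPM in the HIRA KO libraries. The HIRA KO mean was 69.2% of control. The lowest values of B2m belonged to the libraries that stood apart, numbered 1 and 2. H2-K1 had 1181, 1187, 1339 and 1484 CPM in control and 751, 756, 1036 and 998 CPM in HIRA KO, a mean of 68.2% of control. H2-D1 had 596, 625, 708 and 706 CPM in control and 448, 409, 526 and 509 CPM in HIRA KO, a mean of 71.8% of control. For each of these genes libraries 1 and 2 lay lower than libraries 3 and 4. Without the libraries that stood apart, the log2 fold changes were -0.27 for B2m, -0.35 for H2-K1 and -0.35 for H2-D1, against -0.53, -0.55 and -0.48 with all.

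The ratio of both heavy chains varied little among libraries of 1 group. Before regeneration there were 50.9 ± 2.48 counts of H2-D1 per 100 of H2-K1 in control and 53.9 ± 4.13 in HIRA KO. After it there were 75.8 ± 3.51 in control and 83.4 ± 4.72 in HIRA KO. Heavy chain sequences are alike, and 14.3% of the 50-base stretches of the longest H2-D1 transcript also occur in transcripts of other genes, 8.79% for H2-K1, so reads of these genes may have been split in counting. B2m shares none, and the antisense genes that overlap B2m and Psmb10 had at most 9 counts in any library.

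Among the loading genes, Tap1 had 40.5 to 52.1 CPM in control and 24.7, 23.9, 36.8 and 35.6 CPM in HIRA KO before regeneration, a mean of 63.3% of control. Tap2, the other chain of the pump, had 24.7 to 30.1 CPM in control and 19.7 to 24.3 CPM in HIRA KO, a mean of 77.1% of control. Tapbp had 99.3 to 118 CPM in control and 79.8 to 91.2 CPM in HIRA KO, a mean of 76.7% of control. Tap2 and Tapbp did not follow the split between libraries 1 and 2 and libraries 3 and 4: their log2 fold changes were -0.35 and -0.39 without the libraries that stood apart, against -0.38 for each with all. Tapbp shares 3422 bases with Zbtb22 on the same strand, which had 196 to 427 counts per library beside 1196 to 4347 for Tapbp.

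The induced subunits Psmb8 and Psmb9 had the largest differences of the list before regeneration. Psmb8 had 37.4, 42.7, 37.8 and 25.0 CPM in control and 20.5, 19.2, 19.4 and 21.1 CPM in HIRA KO. Psmb9 had 24.2, 23.3, 19.7 and 14.1 CPM in control and 10.2, 8.27, 9.52 and 12.5 CPM in HIRA KO, a mean of 49.9% of control. Both were low in all 4 HIRA KO libraries alike, and control library 4 was the lowest control for both. Their log2 fold changes were -0.82 and -0.88 without the libraries that stood apart. Psmb10 was the exception, with 28.5, 29.2, 21.6 and 16.5 CPM in control and 23.8, 21.01, 18.5 and 16.9 CPM in HIRA KO, so its groups overlapped.

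Nlrc5, the activator, had 47.1, 38.6, 33.0 and 28.3 CPM in control and 19.5, 22.5, 23.1 and 23.4 CPM in HIRA KO before regeneration, a mean of 60.2% of control. Its 4 HIRA KO libraries lay close together, while the control libraries spread over a wider range. The gene had 337 to 947 reads in a library. The log2 fold change was -0.73, and -0.66 without the libraries that stood apart.

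The comparison after regeneration used other libraries, but by the design these came from mice whose resected tissue gave samples before regeneration. It is therefore not a separate set of animals, and the genes had been chosen with all results known. Nlrc5 was the 1 member of 10 that edgeR called, with a log2 fold change of -0.66 ± 0.142 and an adjusted p of 0.0464, against 0.491% of all genes called. It had 32.3, 41.5, 34.0 and 31.3 CPM in control and 19.7, 19.8, 23.5 and 25.0 CPM in HIRA KO. All HIRA KO values were again below all control values, which held for no other member and for 4.45% of all genes. At an unadjusted p under 0.05 there were 4 of 10 members (Nlrc5, Tap2 and Tapbp lower, Psmb10 higher), against 15.8% of all genes. DESeq2 called Nlrc5 too. The call was lost when libraries were left out: the log2 fold change without the libraries that stood apart was -0.50 with an adjusted p of 0.289. With any 1 library left out it ran from -0.71 to -0.55, and the call held in 2 of 8 cases, those without HIRA KO library 3 or without HIRA KO library 4.

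The remaining members did not pass the test after regeneration. For most of them, though not for Tap2 and Psmb10, the HIRA KO libraries split. B2m had 2319, 2186, 2459 and 2221 CPM in control and 1354, 1495, 2038 and 2653 CPM in HIRA KO. Libraries 1, 2 and 3 lay below every control and library 4 above every control. The log2 fold change was -0.28 ± 0.199 with an edgeR adjusted p of 0.527, and 0.05 without the libraries that stood apart. H2-K1 had 1086 to 1277 CPM in control and 779.9, 854, 1075 and 1443 CPM in HIRA KO (log2 fold change -0.16 ± 0.180). H2-D1 had 784 to 1000.5 CPM in control and 689, 739.5, 858 and 1139.6 CPM in HIRA KO (-0.04 ± 0.156). Without the libraries that stood apart these were 0.13 and 0.20. For all 3 genes the HIRA KO libraries spread from below to above the controls.

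Tap1 had the widest split of the loading genes, with 26.6, 29.2, 55.2 and 50.8 CPM in HIRA KO after regeneration and 48.7 to 60.3 CPM in control (log2 fold change -0.41 ± 0.210). It was at 0.00 without the libraries that stood apart. Tap2 lay between 22.4 and 29.2 CPM in HIRA KO and between 29.2 and 35.3 CPM in control (-0.27 ± 0.106). Tapbp lay between 135 and 179 CPM in HIRA KO and between 165 and 209 CPM in control (-0.26 ± 0.116). Neither passed the test, with edgeR adjusted p-values of 0.221 and 0.276, and their log2 fold changes without the libraries that stood apart were -0.20 and -0.08.

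Psmb8 had 48.0, 51.4, 61.8 and 60.4 CPM in control and 28.4, 39.0, 65.4 and 66.2 CPM in HIRA KO after regeneration. Psmb9 had 23.6, 28.6, 23.9 and 27.1 CPM in control and 9.97, 15.8, 27.5 and 29.4 CPM in HIRA KO. For both, libraries 1 and 2 lay below all controls, and libraries 3 and 4 lay above all controls for Psmb8 and among or above them for Psmb9. Psmb10 went the other way, with 34.0, 25.8, 27.6 and 30.1 CPM in control and 30.8, 49.6, 35.7 and 41.4 CPM in HIRA KO. Its log2 fold change of 0.42 ± 0.175 had an edgeR adjusted p of 0.247 and was 0.41 without the libraries that stood apart. Psmb10 was the 1 member with a positive log2 fold change after regeneration.

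Over the list, 9 of 10 members had a log2 fold change below 0 after regeneration, as did 47.7% of all genes, and the median was -0.27 beside 0.02 over all genes. Without the libraries that stood apart 3 of 10 were below 0 and the median was 0.09. The direction of the list thus changed with them left out. Only HIRA KO libraries could meet the rule for standing apart, which picks those far from control. A shift towards control is therefore partly set by that rule. HIRA KO library 1 lay below all 4 controls for 9 of 10 members and library 2 for 9 of 10. Library 3 did so for 3 members and library 4 for 2, and library 4 lay above all controls for 6. Before regeneration each of the 4 HIRA KO libraries had lain below all controls for 9 of 10 members.

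**Figure D2:**
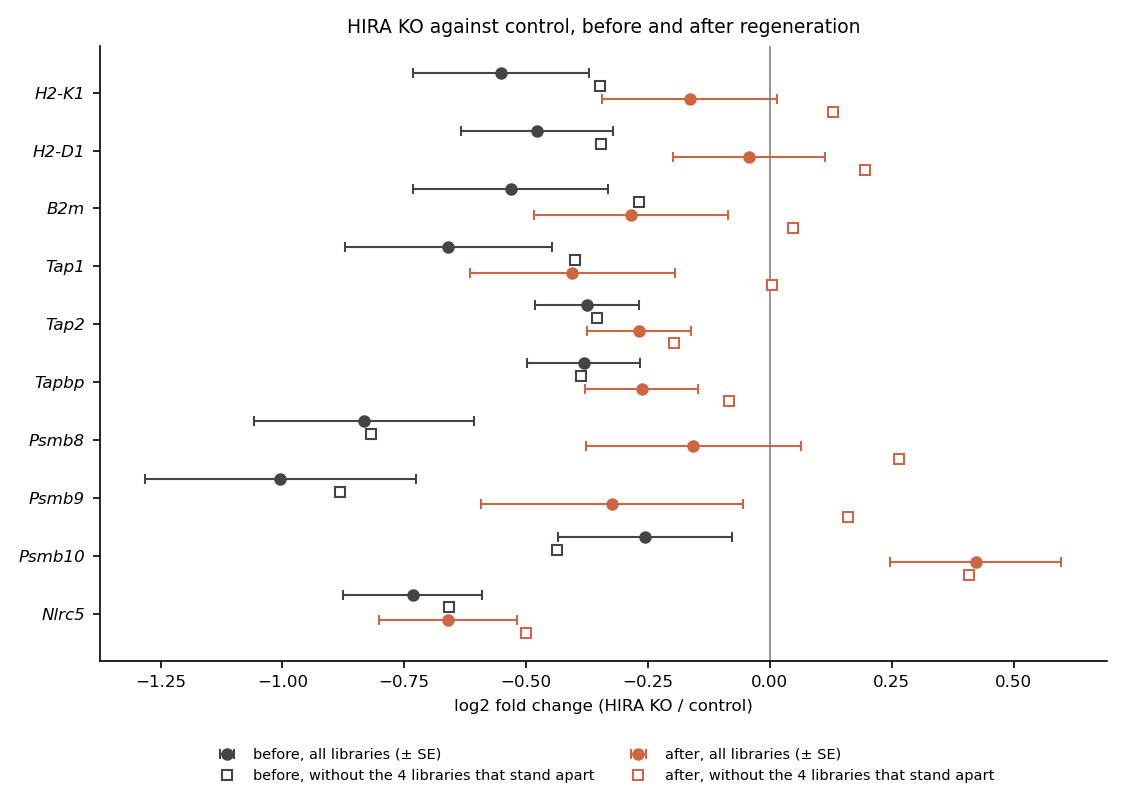
Log2 fold change of HIRA KO over control for each gene (x axis), before regeneration in grey and after it in orange, with bars for ± SE of the fit on all libraries and open squares, without bars, for the fit without the 4 libraries that stand apart. The grey points all lie below 0, and of the open orange squares only those of Tap2, Tapbp and Nlrc5 do.

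An interaction term tested whether loss of HIRA had unequal effects at both times. edgeR called 0 of the 10 members and 0 of 23018 genes, and DESeq2 called 0 members and 67 genes. At an unadjusted p under 0.05 there were 2 members (Psmb8 and Psmb10), against 6.81% of all genes. All 10 differences were above 0, as were 48.6% over all genes, from 0.07 ± 0.201 for Nlrc5 to 0.68 ± 0.385 for Psmb9. The first time point of this contrast had chosen the genes for a negative effect. A positive difference is therefore partly set by that choice. For Nlrc5 the log2 fold changes at both times stood within 0.07 of each other, and for Psmb10 they stood 0.68 ± 0.249 apart with an adjusted p of 0.580.

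The exchange of proteasome subunits was measured within each library as the count of an induced subunit per 100 counts of the constitutive subunit it replaces, which needs no library size. Before regeneration there were 64.7 ± 18.8 counts of Psmb8 per 100 of Psmb5 in control and 36.3 ± 4.89 in HIRA KO, given as a description. For Psmb9 per 100 of Psmb6 there were 21.8 ± 6.53 and 11.9 ± 1.56. For Psmb10 per 100 of Psmb7 there were 23.99 ± 7.83 and 21.96 ± 6.17.

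After regeneration Psmb9 per 100 of Psmb6 stood at 22.8, 29.1, 22.8 and 21.6 in control and at 10.1, 13.9, 20.4 and 20.4 in HIRA KO. The groups did not overlap, and the difference of -0.62 on the log2 scale had an exact two-sided permutation p of 0.0286, the smallest that 4 against 4 can give, and 0.0857 after adjustment over 3 ratios. Psmb8 per 100 of Psmb5 stood at 78.8 ± 9.81 in control and 63.1 ± 8.77 in HIRA KO, a difference of -0.32 with an exact permutation p of 0.0857 (adjusted 0.129). Psmb10 per 100 of Psmb7 stood at 30.5, 25.5, 26.2 and 25.4 in control and at 39.7, 53.1, 27.6 and 27.1 in HIRA KO, a difference of 0.40 with an exact permutation p of 0.171. None of the 3 passed after adjustment. A single ratio could not pass alone, because the smallest possible p of 0.0286 becomes 0.0857 over 3 ratios, so nothing is concluded from this. In HIRA KO libraries 1 and 2 the ratio of Psmb9 was the lowest and that of Psmb10 the highest of the 8 libraries after regeneration.

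**Figure D3:**
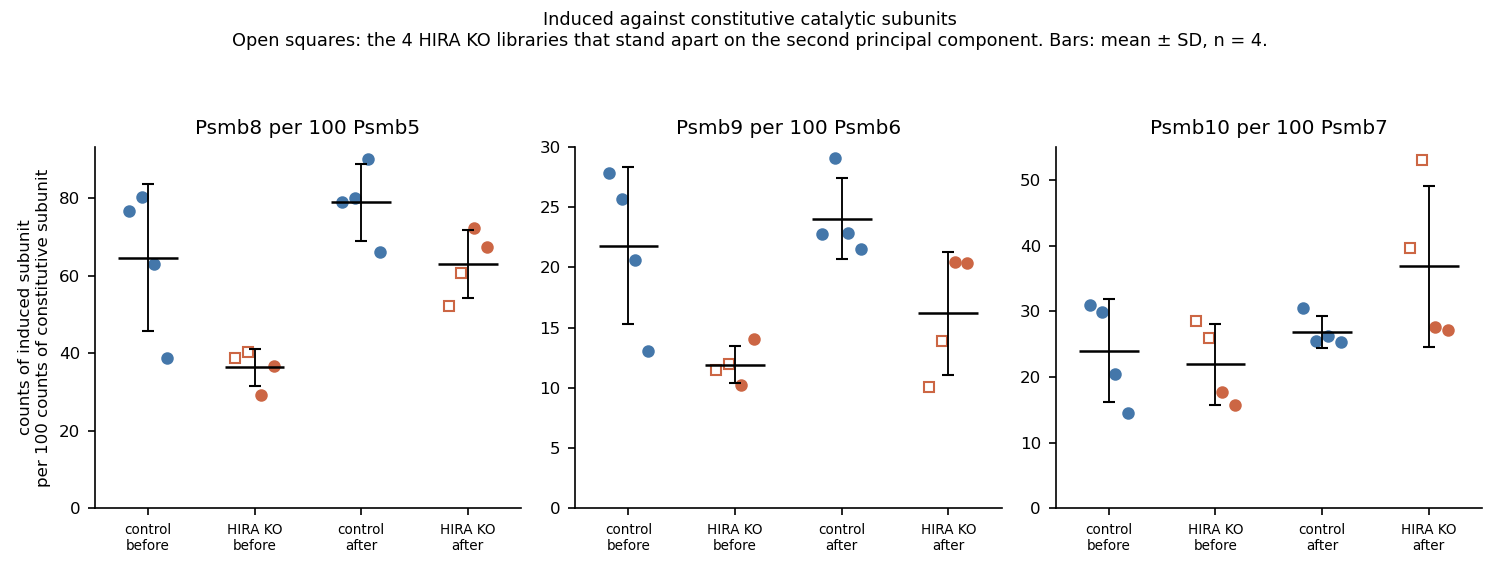
Counts of Psmb8, Psmb9 and Psmb10 per 100 counts of Psmb5, Psmb6 and Psmb7 in each library (y axes from 0), with open squares for the HIRA KO libraries that stand apart and bars for mean ± SD, n = 4. After regeneration the open squares are the lowest points for Psmb9 and the highest for Psmb10.

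Regeneration was compared within each genotype. These comparisons share the libraries before regeneration with the one that chose the genes, so a rise from the HIRA KO libraries is partly set by the choice. In control, edgeR called 1 of 10 members higher (Tapbp) and 0 lower, against 6.04% of all genes higher and 4.17% lower. In HIRA KO it called 5 of 10 higher (H2-D1, Tapbp, Psmb8, Psmb9 and Psmb10) and 0 lower, against 6.48% higher and 5.53% lower. These shares over all genes also stand beside the regeneration calls of the other lists below. The groups did not overlap for 3 members in control and 4 in HIRA KO, all higher, beside 10% and 8.61% of all genes. The medians of the members were 0.23 in control and 0.64 in HIRA KO, beside 0.00 and 0.02 over all genes.

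Tapbp rose in both genotypes, from 111 ± 8.36 to 186 ± 18.2 CPM in control (log2 fold change 0.75 ± 0.116, edgeR adjusted p 0.000855) and from 85.0 ± 5.31 to 155 ± 21.6 CPM in HIRA KO (0.87 ± 0.117, adjusted p 0.000272). H2-D1 rose in HIRA KO from 473 ± 54.2 to 857 ± 201 CPM (0.86 ± 0.157) and stood at 659 ± 57.0 and 882 ± 89.6 CPM in control (0.42 ± 0.156, adjusted p 0.0979). H2-K1 differed from H2-D1 here, with log2 fold changes of -0.16 ± 0.180 in control and 0.23 ± 0.180 in HIRA KO, neither called. B2m stood at 0.09 ± 0.199 and 0.33 ± 0.200, and Nlrc5 at -0.08 ± 0.141 and -0.01 ± 0.143.

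The induced subunits rose in HIRA KO. Psmb8 went from 20.1 ± 0.891 to 49.7 ± 19.0 CPM (log2 fold change 1.31 ± 0.227, edgeR adjusted p 0.00201), Psmb9 from 10.1 ± 1.79 to 20.7 ± 9.35 CPM (1.03 ± 0.277, 0.0260) and Psmb10 from 20.04 ± 3.00 to 39.4 ± 8.06 CPM (0.97 ± 0.178, 0.00229). The groups of Psmb9 overlapped. Its call held in 3 of 8 fits with 1 library left out, beside 8 of 8 for Psmb8 and for Psmb10. In control Psmb8, Psmb9 and Psmb10 stood at 0.63 ± 0.222, 0.34 ± 0.269 and 0.29 ± 0.176, not called. That the rises differed between genotypes was not shown by the interaction test above. Without the libraries that stood apart 6 members were called in HIRA KO, the same 5 and Tap1, and 3 in control (Tapbp, H2-D1 and Psmb8). Calls over all genes were then 2225 in HIRA KO and 3858 in control, against 2764 and 2350 with all libraries. DESeq2 also called these 3 members in control, where it called 3282 genes.

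**Figure D4:**
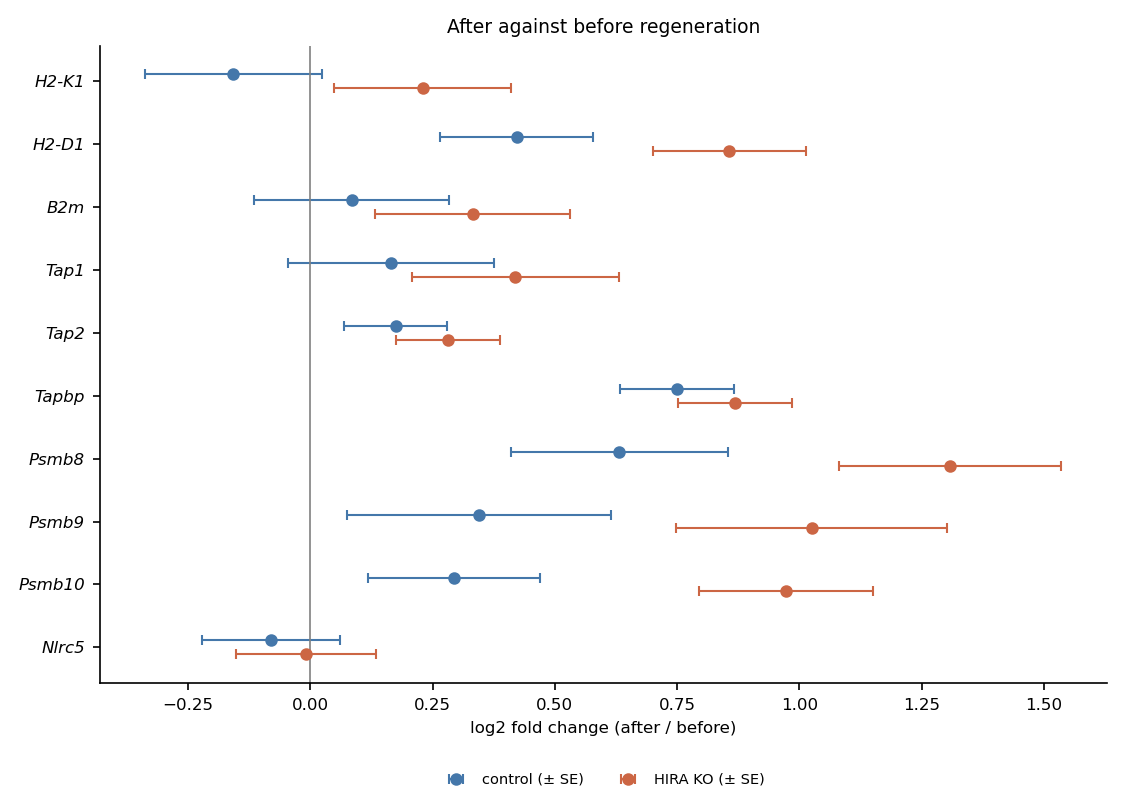
Log2 fold change of after over before regeneration for each gene (x axis), in control (blue) and HIRA KO (orange), with bars for ± SE of the fit across all libraries. Tapbp lies at 0.75 and 0.87, and Nlrc5 lies near 0 in both genotypes.

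Members did not move as 1 block. Over the 16 libraries, log2(CPM + 1) of Psmb9 and Psmb8 followed the mean of the other 9 members with Pearson's r of 0.96 and 0.94, while Nlrc5 did so with 0.55 and Psmb10 with 0.45. Between Psmb10 and Nlrc5 r was -0.04, and between H2-K1 and B2m it was 0.95. These correlations are a description, since the libraries share groups, mice and the apart libraries. Outside the lists, the genes most like the mean of the members were Spg21 (r = 0.96), Nme4 (0.96), Ifitm3 (0.95), an interferon-induced membrane protein, Trafd1 (0.94), and the class I heavy chain H2-Q5 (0.94), out of 13038 genes with a mean of at least 1 CPM.

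Other heavy chains, of which 17 of 18 listed were tested, had 11 log2 fold changes below 0 in HIRA KO both before and after regeneration. Their medians were -0.13 and -0.12, and 0 were called at either time. For 5 of the 17, including H2-T23, no HIRA KO library reached the lowest control before regeneration, as for 4.53% of all genes. After it this held for 0 of the 17, beside 4.45% of all genes. Without the libraries that stood apart 10 of 16 tested were below 0 before regeneration (median -0.21), but 4 of 16 after it (median 0.077), so the direction after regeneration turned. That way of leaving out libraries was applied to all lists after the data had been seen. H2-Q10, a secreted heavy chain made by hepatocytes and the most abundant of them, had 1895 to 2207 CPM in control and 1732 to 2045 CPM in HIRA KO before regeneration, and the groups overlapped at both times. H2-T23, which encodes the nonclassical molecule Qa-1, had 163 to 219.7 CPM in control and 109 to 141 CPM in HIRA KO before regeneration. After regeneration it had 223 to 283 CPM in control and 161 to 311 CPM in HIRA KO. With regeneration 1 of the 17 was called higher in control (H2-Q4) and 6 in HIRA KO (H2-Q4, H2-Q6, H2-T22, H2-T23, H2-T24 and H2-M3). Cd1d1, which presents lipids, was called lower in HIRA KO. There were 6 called higher in control and 7 in HIRA KO without the libraries that stood apart.

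Of 10 other loading and trimming genes, 7 were below 0 in HIRA KO before regeneration and 8 after it, with medians of -0.08 and -0.22 and 0 called. With the apart libraries left out 5 of 10 were below 0 at each time, with medians of 0.04 and -0.05. Hspa5 and Calr, chaperones of the endoplasmic reticulum, had log2 fold changes of 0.04 ± 0.392 and -0.07 ± 0.213 before regeneration. The proteasome activator Psme1 rose with regeneration in control (0.51 ± 0.133, edgeR adjusted p 0.0190) and HIRA KO (0.78 ± 0.134, 0.00157), and its partner Psme2 in HIRA KO (0.70 ± 0.139, 0.00377). The 16 constitutive proteasome genes, with Psmb1 and Psma4 the most abundant, had 15 of 16 below 0 in HIRA KO before regeneration and 8 of 16 after it, with medians of -0.11 and 0.00 and 0 called. These values changed when the libraries that stood apart were left out. Then 7 of 16 were below 0 before regeneration (median 0.01) and 1 of 16 after it (median 0.27). With regeneration 3 of the 16 were called higher in HIRA KO (Psmb3, Psmb4 and Psmb6) and 0 in control, or 8 and 2 without those libraries. Psmb6 and its rise enter the Psmb9 ratio above.

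The factors that bind class I promoters were mostly at a log2 fold change below 0 in HIRA KO, 9 of 12 at each time. Their medians were -0.10 before and -0.23 after regeneration, with 0 called. With the apart libraries left out 9 of 12 were below 0 before regeneration (median -0.09) and 11 of 12 after it (median -0.15). Rela had 0.11 ± 0.096 before regeneration and Irf2 -0.18 ± 0.131. Irf1, an activator that interferon gamma induces, had 34.6 to 43.7 CPM in control and 24.8 to 32.2 CPM in HIRA KO after regeneration. Its groups did not overlap there, as for 2 of the 12 factors and 4.45% of all genes. Its log2 fold change of -0.41 ± 0.188 had an edgeR adjusted p of 0.302, and the lowest log2 fold change of the 12 was -0.75. Irf1 rose with regeneration in control (0.69 ± 0.190, edgeR adjusted p 0.0258) and Irf2 fell there by 0.45 on the log2 scale (adjusted p 0.0344).

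Interferon gamma itself was near the floor, with 9 reads of Ifng over all 16 libraries. Of 8 other genes of its signal, 5 were below 0 before regeneration and 7 after it, with 0 called. The counts were 7 and 4 without the libraries that stood apart. Jak1, a kinase at the receptor, had log2 fold changes of -0.08 ± 0.112 and -0.11 ± 0.112. The receptor genes Ifngr1 and Ifngr2 rose with regeneration in both genotypes.

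The 22 interferon-stimulated genes were all below 0 in HIRA KO before regeneration, as were 48.8% of all genes, with a median of -0.67. For 8 of them no HIRA KO library reached the lowest control, as for 4.53% of all genes. This list too was chosen with earlier results of these data known, so nothing is read from these counts. edgeR called 0 of the 22. After regeneration 10 of 22 were below 0, with a median of 0.02, and 0 were called. Isg15, an antiviral ubiquitin-like protein, had 31.9, 48.1, 46.8 and 89.2 CPM in control and 22.1, 18.9, 108 and 113 CPM in HIRA KO after regeneration. Irf7, the factor that amplifies type I interferon, had 191.8 to 321 CPM in control and 123, 89.5, 327 and 369 CPM in HIRA KO. Iigp1 and Ifi27 were the most abundant of the list, and Iigp1 had 222, 247, 498 and 506 CPM in HIRA KO after regeneration beside 397 to 445 CPM in control. Without the libraries that stood apart, 21 of 22 were below 0 before regeneration (median -0.64) and 1 of 22 after it (median 0.48). With regeneration edgeR called 9 of 22 higher in control and 15 in HIRA KO, against 6.04% and 6.48% of all genes, with medians of 1.06 and 1.76. Without those libraries it called 15 and 21, where 3858 and 2225 of all genes were called in either direction.

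The 11 genes of presentation by class II had medians of 0.23 before and 0.76 after regeneration in HIRA KO, with 9 and 10 above 0 and 0 called. In the remaining 12 libraries, without those that stood apart, 3 of 11 were above 0 before regeneration (median -0.71) and 8 of 11 after it (median 0.19). Cd74, the invariant chain, had log2 fold changes of 0.22 ± 0.476 and 0.84 ± 0.481. The summed class II level was 395 and 394 CPM in HIRA KO libraries 1 and 2 before regeneration, and 142 and 139.7 CPM in libraries 3 and 4. Control libraries ranged from 136 to 285 CPM. After regeneration the sums were 282, 386, 181 and 197 CPM in HIRA KO and 135 to 207 CPM in control. In the libraries that stood apart class II was thus high where class I was low. Ctss, a protease of the class II route, rose with regeneration in both genotypes (0.99 ± 0.200 and 1.28 ± 0.202, edgeR adjusted p 0.00475 and 0.000871).

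**Figure D5:**
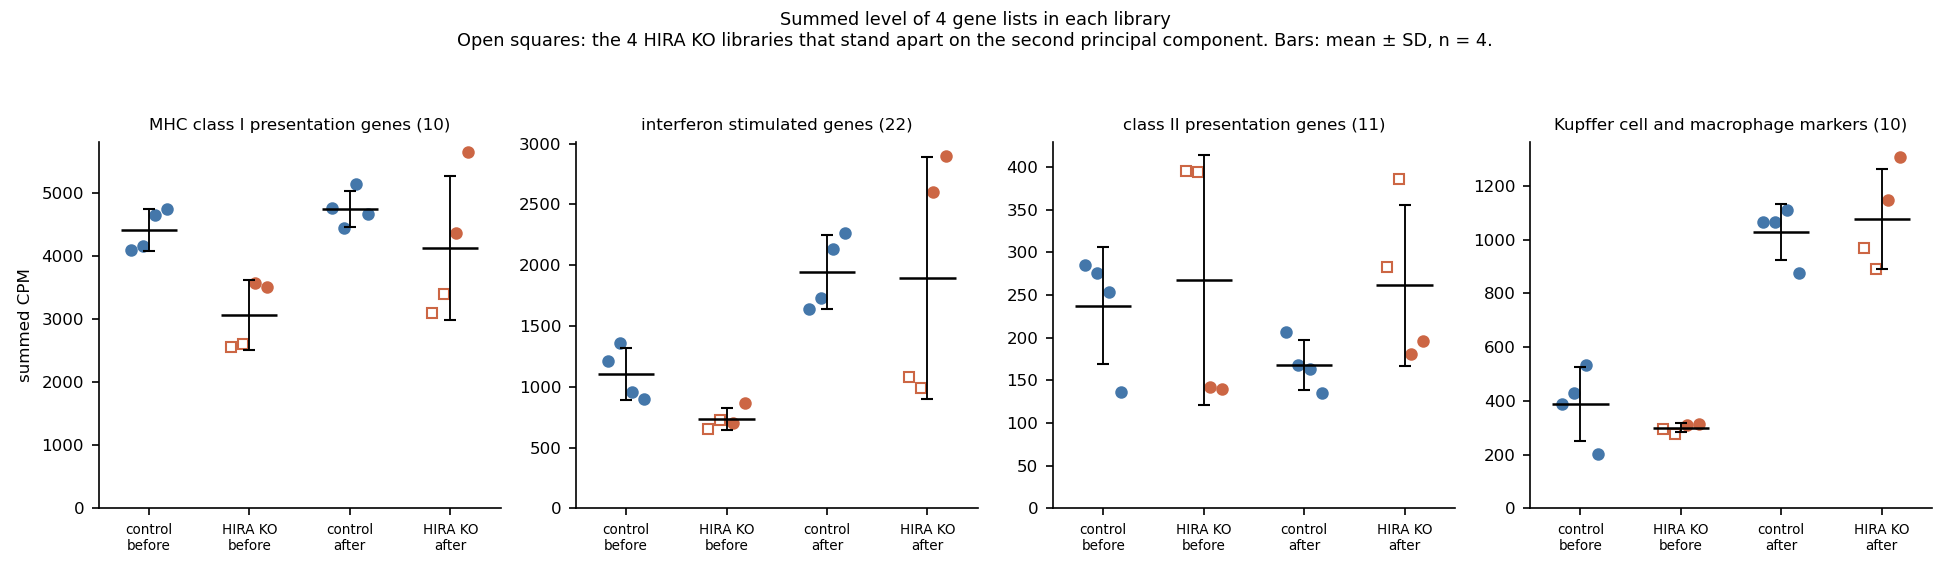
Summed TMM-scaled CPM (y axes from 0) of the 10 class I presentation genes, 22 interferon-stimulated genes, 11 class II presentation genes and 10 Kupffer cell and macrophage markers in each library, with open squares for the HIRA KO libraries that stand apart and bars for mean ± SD, n = 4. After regeneration the open squares are low for class I and interferon-stimulated genes and high for class II, and the macrophage markers are high in every library.

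Markers of other cells that carry class I moved with regeneration. The 10 Kupffer cell and macrophage markers were all called higher in both genotypes, and their sum went from 201 to 535 CPM in control and 277 to 314 CPM in HIRA KO before regeneration to 877 to 1108 CPM and 889 to 1306 CPM after it. In HIRA KO against control, 9 of 10 were below 0 before regeneration (median -0.34) and 3 of 10 after it (median 0.06), with 0 called at either time. When the apart libraries were left out, 10 of 10 were below 0 before regeneration (median -0.32) and 0 of 10 after it (median 0.24). The most abundant, Cd5l and Clec4f, rose by 1.94 ± 0.243 and 1.12 ± 0.265 on the log2 scale in control. The part of these cells in the rise of the members was not tested.

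The 13 T and NK cell markers, with Cd4 and Gzmb the most abundant, summed to 3.02 to 11.9 CPM in all libraries, and the 5 B cell markers, with Cd79a and Cd79b, to 1.67 to 9.53 CPM. The 7 dendritic cell markers, with Zbtb46 and Clec9a, summed to 7.97 to 20.01 CPM. No marker of these lists was at 0 in all libraries of a group, and none was called in HIRA KO against control. B cell and dendritic cell markers were above 0 in HIRA KO before regeneration for 5 of 5 and 7 of 7 genes (medians 0.91 and 0.74), and among HIRA KO libraries at that time the sums were highest in libraries 1 and 2. Without these the medians were -0.12 and -0.19, and that of the T and NK cell markers was -0.87 in place of 0.19. The 8 endothelial markers, led by Stab1 and Stab2, had medians of -0.07 and -0.02 in HIRA KO, and the 10 hepatocyte markers 0.03 and 0.06. Leaving out the apart libraries gave 0.0072 and -0.08 for endothelial and -0.16 and -0.04 for hepatocyte markers. Regeneration called 1 T and NK cell marker higher in each genotype (Prf1 in control and Gzmb in HIRA KO), the B cell marker Ms4a1 in control and the dendritic marker Batf3 in HIRA KO. Among endothelial markers Cdh5 was called higher and Kdr lower in both genotypes, and among hepatocyte markers Tat was called lower in both, Apoe in control and Ttr in HIRA KO. The part of any of these cells in the lower class I values of HIRA KO was not tested.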

How the data were processed

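Livers were sequenced after poly-A selection with a directional kit. The authors describe trimming of reads where needed, STAR alignment to mm10 and counting with HOMER. The submitters' processing notes name STAR, HTSeq and Cufflinks. The annotation release and the strand setting of counting are not given in the sources used here. The deposited tables hold whole-number read counts and FPKM (fragments per transcript length and library size). Between 4613 and 5667 genes per library had 0 counts and an FPKM, so both were not made the same way. No column gives the deletion approach or mouse, so each was used as a replicate of its group. The study gives 4 mice in each group, 2 for each deletion approach, so replicates are separate mice.

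The members and all lists were chosen with earlier results of these data known. Genes with at least 10 counts over 16 libraries (23018) were scaled by TMM and fitted as 4 group means with the robust quasi-likelihood test of edgeR 4.0.16 (R 4.3.3), with Benjamini-Hochberg adjustment over all of them and calls at an adjusted p under 0.05. Errors of log2 fold changes are approximate, from the F statistic. Ratios were compared by exact permutation. From the other lists, genes called over all genes and the 2 most abundant were named, with further genes (H2-Q5, H2-M3, Isg15, Irf7 and Irf1 after regeneration, the subunits in ratios) given for comparison. One gene that this rule names is not reported here. DESeq2 1.42.0, limma 3.58.1 on log2(FPKM + 0.1), other filters and scalings, and left-out libraries were the alternatives. Scripts were tested on simulated data. Replicate counts differed by 13.7 to 152 in chi-square per degree of freedom. Libraries were called apart where PC2 lay more than 20 below the lowest control, so only HIRA KO libraries could be called apart. Of the 55421 gene IDs, 55154 were in GENCODE M21, versions aside.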

Additional observations from a re-analysis of the deposited data

Results flagged for a closer look

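Control library 1 after regeneration stood above the other 3 controls in the ratio of Psmb10 to Psmb7, with 30.5 counts per 100 beside 25.4 to 26.2. Its gap to the nearest library was 0.833 of the group's range, past the 95% limit of Dixon's test for 4 samples. Among 52 groups of 4 checked for a sample far from the others it was the only one, and chance gives about 1 in 20.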

How the results depend on the processing

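Counts below are members called at an adjusted p under 0.05. In HIRA KO against control before regeneration edgeR called 0, DESeq2 3, edgeR with no filter on low counts 1, and with any 1 library left out it called 0 to 1 (Nlrc5, without control library 4). Over all genes these were 9, 375 and 36. This comparison chose the members, so these counts show only how the settings differ. After regeneration edgeR called 1 (Nlrc5), and 0 with DESeq2 size factors, with only the groups compared, without the HIRA KO libraries that stood apart and with limma on log2 FPKM, where 85, 0, 15 and 67 genes were called overall. DESeq2 and filterByExpr kept the call, with 910 and 228 genes overall against 113. With any 1 library left out 0 to 1 were called. The adjusted p of Nlrc5 ran from 0.00401 to 0.289 over the alternatives. The median of the members after regeneration was -0.27, and 0.089 without the libraries that stood apart. Regeneration in control had 1 member called, and 3 (H2-D1, Psmb8 and Tapbp) with DESeq2, with only the groups compared, without the libraries that stood apart and with limma on log2 FPKM. Over all genes these fits called 3282, 3275, 3858 and 2052, against 2350. With limma on log2 FPKM the median of the members was 0.39 against 0.23. With 1 library left out that median ran from 0.13 (without control library 4 before regeneration) to 0.30. In HIRA KO regeneration 4 to 6 members were called in place of 5, while calls over all genes ran from 1431 to 3654, against 2764. Psmb9 lost its call with no filter and with only the groups compared, and kept it in 3 of 8 fits with 1 library left out. Nlrc5 reversed there with limma on log2 FPKM, to 0.55 (adjusted p 0.0381) from -0.01. The cause was not tested. Of the values of single members, 319 kept their side of the threshold under alternatives other than leaving out 1 library, 14 gained a call, 6 lost it and 1 reversed. With 1 library left out, 467 kept their side, 2 gained a call and 11 lost it. A change of direction was counted as a reversal only where a fit made a call. Values without a call that changed direction, as several members did after regeneration without the libraries that stood apart, are among those kept.

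No paired analysis was possible because the running numbers of the table columns are in no label and tie no library to a mouse, so fits with the number as a block or with the deletion approach as a term were not run. Libraries before and after regeneration were fitted as independent, although by the design they can come from the same mice. Ratios on FPKM gave adjusted exact p-values of 0.0857, 0.0857 and 0.171. Depth limited Psmb9 most, with 124 reads in 1 library beside at least 18789 for B2m.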
